A study of Homo sapiens with 9 samples.

Results

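The clade B serpins SERPINB1 to SERPINB9 are the subject here, 9 of the 30672 genes measured on expression arrays of a lung cancer cell line. The members were taken by gene symbol, and the set, which is named for SERPINB5, was chosen by its log2 intensities across the 3 groups of the study. The values of the members are therefore a description: intervals and calls from the fit over all genes describe their size against the spread between arrays and are no independent evidence. HCC4006 is an established human lung adenocarcinoma line with a mutated epidermal growth factor receptor (EGFR). Gefitinib inhibits the EGFR kinase, and SB431542 inhibits the kinase of the type I receptor for transforming growth factor β (TGFβ). The first group, called inhibitor cells below, had 6 months of gefitinib in rising amounts combined with SB431542. The second group, called resistant cells, had 6 months of gefitinib in rising amounts without SB431542. The third group was the unselected parental HCC4006 line, and each group had 3 arrays.

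The sample titles call these cells both gefitinib resistant and treated with the receptor inhibitor, while the series design speaks of a combination, so the order of selection and inhibitor is not settled. No group had SB431542 alone, and no group is labelled as cultured for 6 months without gefitinib. Whether a difference belongs to SB431542, to gefitinib, to separate rounds of selection or to the months in culture cannot be told apart. The labels do not say whether arrays of a group came from separate cultures, so the spread between arrays and the p-values resting on it may be technical.

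Serpins are proteins with an exposed reactive loop that works as bait: a protease that cuts it is trapped in a covalent complex and inactivated. Members of clade B, also called ov-serpins, lack a classical secretion signal and act mostly inside cells, where they guard against proteases that leak from granules or lysosomes. SERPINB5, or maspin, is the exception, since it does not inhibit proteases by this mechanism. It is abundant in many epithelia and was first described as a tumour suppressor lost from mammary carcinoma.

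Values are intensities on a linear scale, quantile-normalized as deposited, with array medians between 91.1 and 91.3. Background had not been subtracted: the median of 387 olfactory receptor rows, genes not used by most tissues, was 85.2, and their 95th percentile, 90.4, was taken as the background level. A fold change of a gene near this level in a group is therefore understated. Arrays of a group correlated at 0.996 to 0.998, except that inhibitor replicate 2 correlated at 0.991 and 0.990 with the other inhibitor arrays. Of 10 markers of lung adenocarcinoma, 8 were above background in at least 1 group, and the surfactant genes SFTPB and SFTPC were at background. The summed level of these markers was 9164 to 10085 in inhibitor arrays, 3737 to 3891 in resistant arrays and 10498 to 12382 in parental arrays. A sum follows its brightest genes. In limma (adjusted p under 0.05), 5 of the 10 were lower and 2 higher in inhibitor than in parental cells (median log2 difference -0.69). Of all genes, 7.79% were lower and 7.13% higher. Against resistant cells, 5 of the 10 were higher and 0 lower, against 8.68% and 8.81% of all genes. In resistant against parental cells, 8 of the 10 were lower and 0 higher (median log2 difference -1.51). There, 10.2% of all genes were lower and 10.2% higher. In inhibitor cells NAPSA and NKX2-1 had log2 differences of -3.41 and -1.40 from parental cells, and of -0.07 and -0.21 from resistant cells.

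SERPINB5 was the member with the widest difference between groups. Its intensity was 916, 928 and 767 in the 3 inhibitor arrays, 153, 151 and 135 in the resistant arrays, and 108, 108 and 106 in the parental arrays. The groups did not overlap in any comparison, and the lowest inhibitor array was far above the highest resistant array. The group means were 870.1 ± 89.8 in inhibitor cells, 146 ± 10.1 in resistant cells and 107 ± 1.22 in parental cells (SD, n = 3 each). On the log2 scale, the difference was 2.57 ± 0.10 between inhibitor and resistant cells (5.94-fold), with a 95% interval of 2.37 to 2.77. Between resistant and parental cells it was 0.45 ± 0.10 (SE throughout for log2 differences; 1.36-fold). Between inhibitor and parental cells it was 3.02 ± 0.10 (8.10-fold). The parental level was close to background, so these folds are understated. The same background value, 85.2, was also subtracted from every array, with a floor of 16, before the log was taken. SERPINB5 was then 12.9-fold higher in inhibitor than in resistant cells. It was 2.78-fold higher in resistant than in parental cells and 35.9-fold higher in inhibitor than in parental cells. The parental arrays, at 106 to 108, were little above the subtracted value, so the folds against parental cells depend strongly on that value. Without inhibitor replicate 2, the log2 difference was 2.52 between inhibitor and resistant cells and 2.97 between inhibitor and parental cells. These are bulk RNA samples, in which a larger share of cells with the transcript and more transcript per cell cannot be told apart.

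SERPINB7, or megsin, is a serpin of the epidermis whose loss causes a palmoplantar keratosis. It was highest in inhibitor cells and lowest in parental cells. Its intensity was 326, 317 and 340 in inhibitor arrays, 164, 180.1 and 159 in resistant arrays, and 83.6, 91.1 and 90.4 in parental arrays. The groups did not overlap, and the parental arrays were at the background level. The log2 difference was 0.92 ± 0.08 between resistant and parental cells (1.89-fold), 0.97 ± 0.08 between inhibitor and resistant cells (1.96-fold), and 1.89 ± 0.08 between inhibitor and parental cells (3.71-fold). After background subtraction the 3 parental arrays were at the floor, so no fold against parental cells is given, and SERPINB7 was 2.96-fold higher in inhibitor than in resistant cells. Leaving out inhibitor replicate 2 moved the differences of the inhibitor cells to 0.99 and 1.92 on the log2 scale.

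SERPINB8, an inhibitor of the proprotein convertase furin, had its highest level in resistant cells. Its intensity was 124, 107 and 122 in inhibitor arrays, 139, 174 and 143 in resistant arrays, and 106, 107.0 and 105 in parental arrays. Resistant arrays stood above both other groups, and all inhibitor arrays were above all parental arrays, the closest pair by less than 1 unit. The log2 difference was 0.51 ± 0.08 between resistant and parental cells (1.43-fold) and -0.36 ± 0.08 between inhibitor and resistant cells (1.29-fold lower). It was 0.15 ± 0.08 between inhibitor and parental cells, with an interval of -0.01 to 0.31. With background subtracted, SERPINB8 was 3.16-fold higher in resistant than in parental cells and 2.06-fold lower in inhibitor than in resistant cells. The parental arrays and inhibitor replicate 2 were little above the subtracted value, so both folds depend on that value. The inhibitor array nearest to parental was replicate 2, and without it the difference of inhibitor cells was -0.30 from resistant and 0.22 from parental cells.

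**Figure D1:**
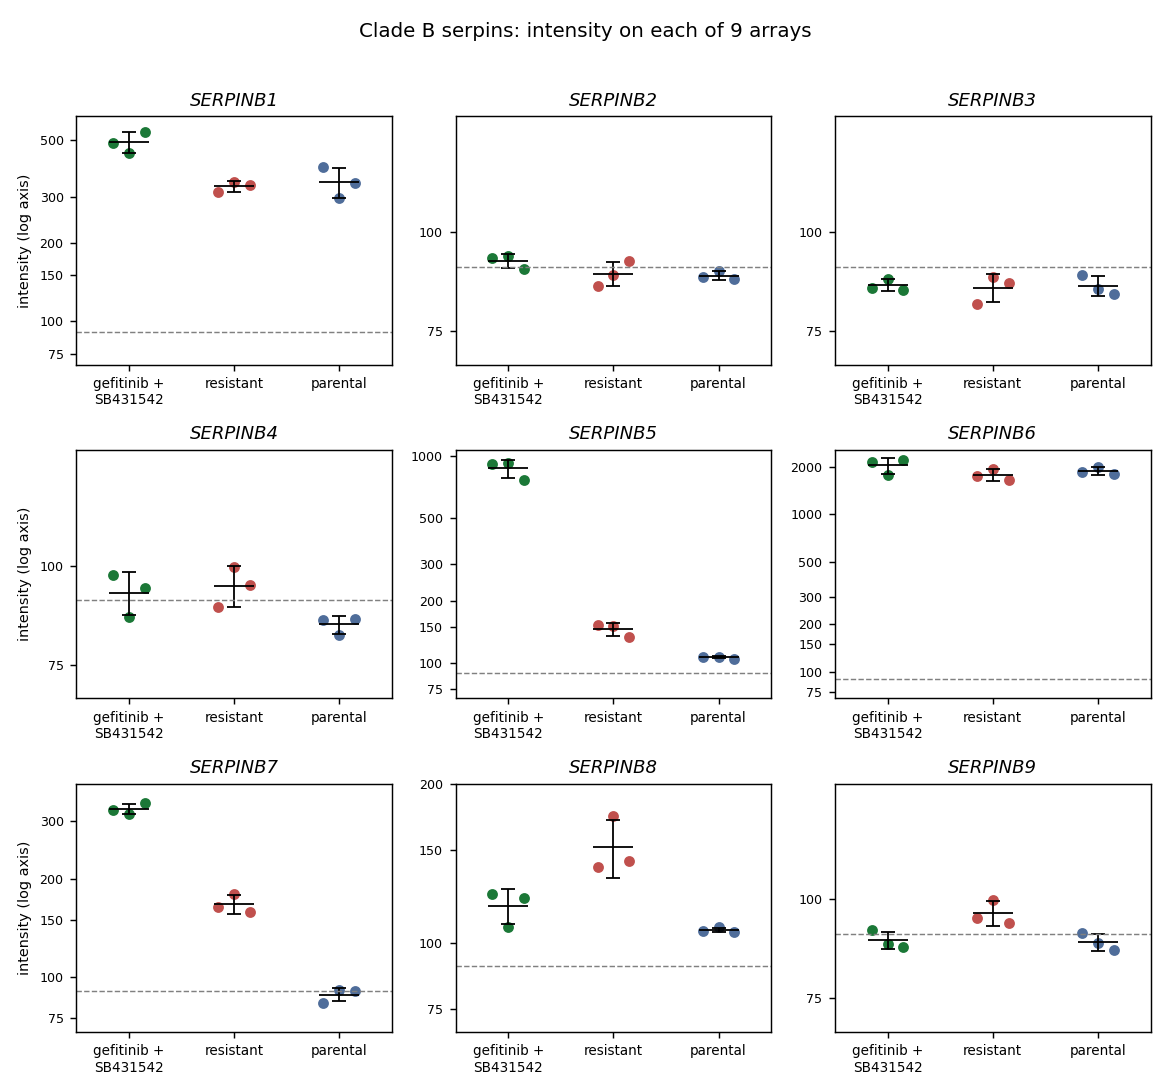
Intensity (log axis) of SERPINB1 to SERPINB9 on each of the 9 arrays, with 1 point per array, the group mean as a line and the SD as a bar (n = 3), and the background level of 90.4 dashed. SERPINB5 and SERPINB7 are highest in inhibitor and lowest in parental cells, SERPINB8 is highest in resistant cells, SERPINB1 is highest in inhibitor cells, and SERPINB2, SERPINB3, SERPINB4 and SERPINB9 lie around the dashed line.

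SERPINB1, an inhibitor of the neutrophil proteases elastase, proteinase 3 and cathepsin G, was higher in inhibitor cells than in both other groups. Its intensity was 484, 444 and 534 in inhibitor arrays, 314, 344 and 333 in resistant arrays, and 390.5, 299 and 340 in parental arrays. The inhibitor arrays did not overlap either other group, while resistant and parental arrays overlapped. The log2 difference was 0.56 ± 0.12 between inhibitor and resistant cells (1.47-fold) and 0.51 ± 0.12 between inhibitor and parental cells (1.43-fold). Between resistant and parental cells it was -0.05 ± 0.12, with an interval of -0.29 to 0.20.

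SERPINB6, which inhibits cathepsin G and is required in the inner ear, showed overlapping groups in every comparison. Its intensity was 2148, 1779 and 2231 in inhibitor arrays, 1743, 1946 and 1666 in resistant arrays, and 1869, 2009 and 1800 in parental arrays. The log2 difference was 0.20 ± 0.11 between inhibitor and resistant cells, with an interval of -0.03 to 0.42, and -0.09 ± 0.11 between resistant and parental cells. The lowest inhibitor array was replicate 2, and without it the difference between inhibitor and resistant cells was 0.30 and passed the threshold that is used for calls below.

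SERPINB9, the inhibitor of granzyme B that protects cytotoxic lymphocytes from their own protease, was close to background in every group. Its intensity was 91.3, 87.9 and 87.1 in inhibitor arrays, 94.7, 99.8 and 93.3 in resistant arrays, and 90.6, 88.0 and 86.2 in parental arrays. The resistant arrays were above both other groups, with a log2 difference of 0.12 ± 0.04 for resistant against parental cells and of -0.11 ± 0.04 for inhibitor against resistant cells. After background subtraction SERPINB9 had no value above the floor on any array, as was the case for SERPINB2, SERPINB3 and SERPINB4.

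SERPINB2, or plasminogen activator inhibitor 2, is known to inhibit urokinase. It was between 89.9 and 93.3 in inhibitor arrays, between 85.5 and 91.9 in resistant arrays and between 87.2 and 89.3 in parental arrays, and its widest log2 difference, that of inhibitor against parental cells, was 0.06 ± 0.04. SERPINB3 and SERPINB4 are the near-identical squamous cell carcinoma antigens, known to inhibit lysosomal cysteine proteases and chymotrypsin-like serine proteases. SERPINB3 lay below the background level on all 9 arrays, and its log2 difference between inhibitor and resistant cells was 0.01 with an interval of -0.07 to 0.09. SERPINB4 was 97.4, 86.2 and 93.8 in inhibitor arrays, 88.7, 99.7 and 94.4 in resistant arrays, and 85.4, 81.7 and 85.7 in parental arrays. All its parental arrays were below all other arrays, and the log2 difference from parental cells was 0.13 ± 0.05 for inhibitor and 0.16 ± 0.05 for resistant cells. Whether the probes of SERPINB3 and SERPINB4 tell these genes apart is not known here, so both values are uncertain.

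**Figure D2:**
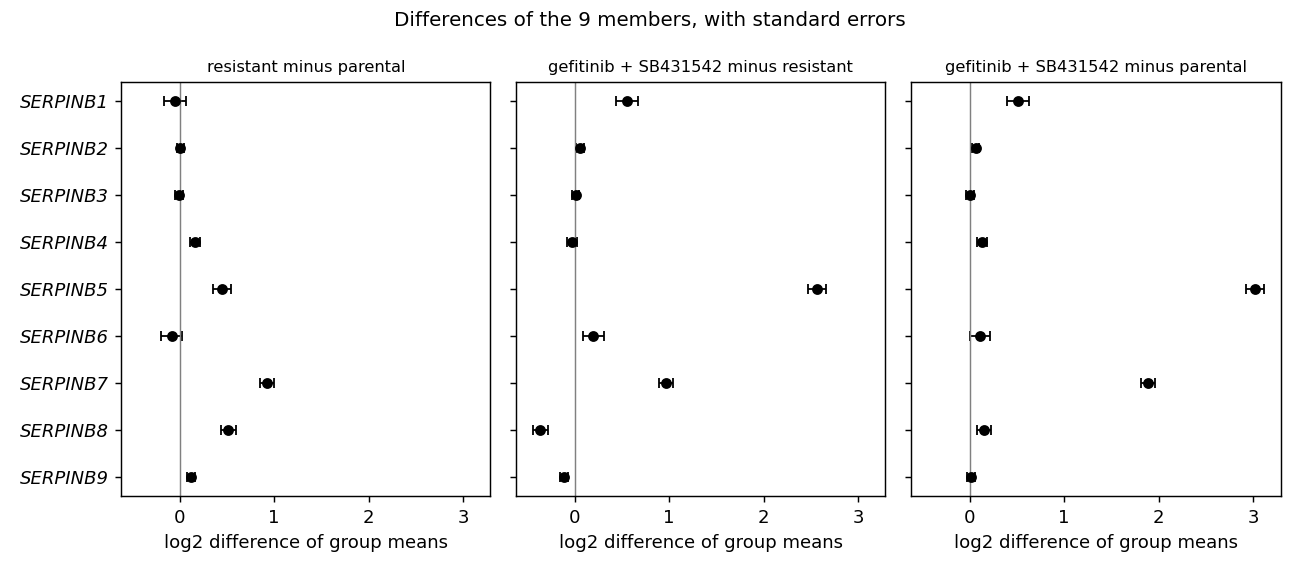
Log2 differences of group means for the 9 members in the 3 comparisons, with bars of 1 SE from the fit over all arrays. SERPINB5 reaches 2.57 between inhibitor and resistant cells and 3.02 between inhibitor and parental cells, SERPINB7 is at 0.92 to 1.89, and SERPINB8 is positive at 0.51 in the left panel and negative at -0.36 in the middle panel.

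Counted over the set, 5 of 9 members were called higher in resistant than in parental cells (SERPINB4, SERPINB5, SERPINB7, SERPINB8 and SERPINB9) and 0 were called lower, where a call is an adjusted p under 0.05 in limma over all genes. In that comparison 20.5% of all genes were called, 10.2% higher and 10.2% lower, and the intervals of the 3 negative member differences all included 0. The same 5 members did not overlap between the groups, against 34.5% of all genes. The calls of SERPINB4 and SERPINB9, both near background, were lost when any 1 of the parental arrays, or resistant replicate 2, was left out. The call of SERPINB4 was also lost without resistant replicate 3, and that of SERPINB9 also without resistant replicate 1, inhibitor replicate 1 or inhibitor replicate 3.

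Between inhibitor and resistant cells, 3 members were called higher (SERPINB1, SERPINB5 and SERPINB7) and 1 lower (SERPINB8), where 17.5% of all genes were called, 8.68% higher and 8.81% lower. Groups of 5 members did not overlap, as for 30.1% of all genes, the fifth being SERPINB9. Between inhibitor and parental cells, 3 members were called higher (SERPINB1, SERPINB5 and SERPINB7), and no member had a negative difference. Of all genes, 14.9% were called there, 7.13% higher and 7.79% lower, and 27.7% had groups that did not overlap, as had 6 members. The median log2 difference of the members was 0.12 between resistant and parental cells, 0.06 between inhibitor and resistant cells and 0.13 between inhibitor and parental cells, while that of all genes was between -0.0008 and 0.0045. In that order the member medians are the values of SERPINB9, SERPINB2 and SERPINB4, all near background, so they do not show a shift of the set. Since these contrasts chose the set, the counts describe it and support nothing. Without inhibitor replicate 2, SERPINB6 was also called higher against resistant cells and SERPINB4 against parental cells, which made 4 members in each.

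SERPINB5, SERPINB7 and SERPINB8 lie in the clade B cluster of human chromosome 18 with other serpin genes between them, and their promoters are shown because they share the cluster and differ in pattern. Each window holds the 250 bases before an annotated start, on the plus strand, from RefSeq on GRCh38.p14, and was matched for all 9 members. Capitals mark matches on either strand to TGANTCA, called the AP-1 letters below, and to CACCTG, the E-box that ZEB and SNAI repressors bind. TGANTCA is a relaxed form of the consensus of AP-1, a factor at the end of mitogen-activated kinase cascades. The consensus itself has C or G at the centre, where N allows any base. The windows are chr18:63476708-63476957 for SERPINB5, chr18:63775168-63775417 and chr18:63777531-63777780 for starts 2 and 3 of the 3 annotated for SERPINB7, and chr18:63969831-63970080 for SERPINB8.
SERPINB5: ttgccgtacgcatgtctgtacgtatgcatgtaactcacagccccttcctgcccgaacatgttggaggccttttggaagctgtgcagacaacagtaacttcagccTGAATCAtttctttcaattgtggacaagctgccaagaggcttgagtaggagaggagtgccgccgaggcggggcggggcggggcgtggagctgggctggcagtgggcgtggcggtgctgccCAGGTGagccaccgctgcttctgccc
SERPINB7 start 2: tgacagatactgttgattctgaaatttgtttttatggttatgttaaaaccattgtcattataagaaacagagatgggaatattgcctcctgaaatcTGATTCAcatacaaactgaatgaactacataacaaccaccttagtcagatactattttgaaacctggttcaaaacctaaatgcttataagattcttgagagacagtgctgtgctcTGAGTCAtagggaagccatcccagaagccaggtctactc
SERPINB7 start 3: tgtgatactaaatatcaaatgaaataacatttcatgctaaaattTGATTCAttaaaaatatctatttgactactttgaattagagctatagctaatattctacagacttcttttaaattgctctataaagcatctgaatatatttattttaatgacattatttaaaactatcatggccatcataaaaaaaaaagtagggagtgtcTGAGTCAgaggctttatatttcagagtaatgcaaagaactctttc
SERPINB8: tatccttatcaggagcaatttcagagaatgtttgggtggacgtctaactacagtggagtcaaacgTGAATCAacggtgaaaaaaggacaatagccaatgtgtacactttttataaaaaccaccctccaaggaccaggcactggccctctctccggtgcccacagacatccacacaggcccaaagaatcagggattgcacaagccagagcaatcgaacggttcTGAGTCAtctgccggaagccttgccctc

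The SERPINB5 window held TGAATCA 146 to 140 bases before the start and CAGGTG, the E-box read on the other strand, 26 to 21 bases before it. The SERPINB7 windows each held TGATTCA and TGAGTCA, with TGAGTCA 39 to 33 bases before start 2 and 45 to 39 bases before start 3, and the window of start 1 held neither motif. SERPINB8 held TGAATCA 185 to 179 bases and TGAGTCA 28 to 22 bases before its start. The AP-1 letters were in a window of 4 of the 6 members on chromosome 18 (SERPINB2, SERPINB5, SERPINB7 and SERPINB8) and of 0 of the 3 on chromosome 6, against 8.06% of 27305 genes and 6.57% of 35116 windows. Of these members, SERPINB2 and SERPINB5 held only TGAATCA, outside the stricter consensus, while SERPINB7 and SERPINB8 also held TGAGTCA, which is within it. The E-box letters were in the window of 1 member, SERPINB5, against 20.6% of genes and 17.5% of windows. SERPINB2 held the AP-1 letters and stayed around background in all groups. The other clade B genes of the cluster with a window, SERPINB12 and SERPINB13, both held the AP-1 letters as well, SERPINB13 also held the E-box letters, and both genes were around background in all groups. The windows of SERPINB3 and SERPINB4 were the same at 247 of 250 positions and held neither motif. A match describes the letters of these windows only, and binding was not measured.

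Chromosome 18 carries 6 members and the clade B genes SERPINB10 to SERPINB13 between VPS4B and CDH7, with HMSD between SERPINB10 and SERPINB8. Chromosome 6 carries SERPINB1, SERPINB9 and SERPINB6 between WRNIP1 and NQO2. Genes with different values stood next to each other. SERPINB5 lies beside SERPINB12, whose intensity was 81.5 ± 0.418 in inhibitor cells, 81.0 ± 1.92 in resistant cells and 86.2 ± 1.5 in parental cells. SERPINB7 lies between SERPINB11 and SERPINB2, both around background in all groups. On the other side of SERPINB5, VPS4B, an ATPase of endosomal sorting, had 964 ± 101 in inhibitor cells, 741 ± 24.4 in resistant cells and 741.0 ± 43.0 in parental cells. VPS4B was higher in inhibitor than in resistant cells by 0.37 ± 0.11 on the log2 scale (adjusted p = 0.0264), with an adjusted p of up to 0.113 over the alternatives, and this neighbour was picked after its values were seen. On chromosome 6 NQO2, a quinone reductase also picked in this way, was 124 ± 3.88 in inhibitor cells, 164 ± 13.3 in resistant cells and 135 ± 5.13 in parental cells. NQO2 rose by 0.28 ± 0.07 in resistant against parental cells (adjusted p = 0.0051) and was lower in inhibitor than in resistant cells, at -0.41 ± 0.07 (adjusted p = 0.000249). The other neighbours picked were HMSD, CDH7 and WRNIP1, of which HMSD was called lower in inhibitor than in parental cells (-0.21 ± 0.05, adjusted p = 0.00332) at a level near background. With the mean of all rows of a gene, the HMSD difference was -0.11 and not called (adjusted p = 0.0641).

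**Figure D3:**
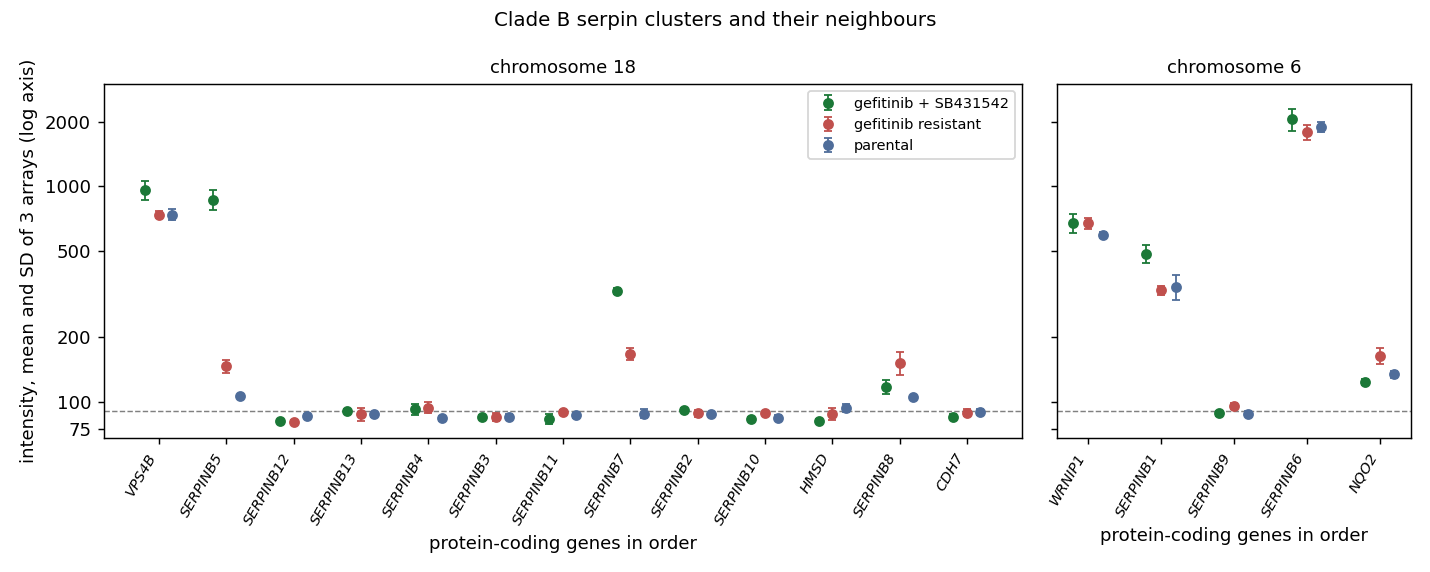
Mean intensity (log axis) with SD of 3 arrays for the clade B serpins and their neighbouring genes in the order in which they lie on chromosomes 18 and 6, with the background level of 90.4 dashed. In the chromosome 18 cluster SERPINB5 and SERPINB8 stand above the line in all groups. SERPINB7 does so in inhibitor and resistant cells only, and genes around the line lie between them.

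Of the remaining clade B genes, SERPINB10 to SERPINB13, 0 of 4 were called in any comparison, against 14.9% to 20.5% of all genes. The group means of these 4 genes were between 81.0 and 90.5. At an unadjusted p under 0.05 in limma, 1 gene passed between resistant and parental cells and 1 between inhibitor and parental cells, SERPINB12 both times, and 2 between inhibitor and resistant cells, SERPINB10 and SERPINB11, all of them lower. The lowest adjusted p of the 4 genes was 0.0635.

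Serpins of other clades are mostly secreted, and 15 or 16 of the 22 measured were not called in each comparison. Of the 22, 3 rose and 3 fell between resistant and parental cells, 3 rose and 3 fell between inhibitor and resistant cells, and 3 rose and 4 fell between inhibitor and parental cells. In the same order, 20.5%, 17.5% and 14.9% of all genes were called higher or lower. The median log2 difference of the 22 was within 0.01 of 0 in each comparison. Only 13 of the 22 were above background in at least 1 group, so this median partly reflects genes without signal. AGT, or angiotensinogen, a serpin that does not inhibit proteases, was 99.0 ± 5.82 in inhibitor cells, 153 ± 1.92 in resistant cells and 117 ± 2.85 in parental cells. It rose by 0.38 ± 0.06 on the log2 scale in resistant against parental cells (adjusted p = 4.62e-05) and was lower in inhibitor than in resistant cells, at -0.63 ± 0.06 (adjusted p = 1.27e-07).

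SERPINE2, or protease nexin 1, an inhibitor of thrombin and urokinase, was 2176 ± 154 in inhibitor cells, 2558 ± 166 in resistant cells and 379 ± 14.8 in parental cells. It rose by 2.75 ± 0.11 in resistant and by 2.52 ± 0.11 in inhibitor against parental cells (adjusted p = 2.6e-13 and 2.6e-12). Between inhibitor and resistant cells it did not pass the test, at -0.23 ± 0.11 (adjusted p = 0.158), though it did with the variance prior fitted without a trend (adjusted p = 0.0329) and after background subtraction (adjusted p = 0.0455). SERPINA1 and SERPINA3 are secreted inhibitors of neutrophil elastase and of cathepsin G. SERPINA1 was 1138 ± 186 in inhibitor cells, 459.6 ± 54.3 in resistant cells and 1554 ± 46.2 in parental cells. It fell by 1.76 in resistant against parental cells (SE 0.13, adjusted p = 3.13e-09) and rose by 1.30 ± 0.13 in inhibitor against resistant cells (adjusted p = 3.43e-07). The inhibitor to parental difference of SERPINA1, -0.46 ± 0.13, was called at an adjusted p of 0.0183 that reached 0.0964 over the alternatives. SERPINA3 was 276 ± 42.0 in inhibitor cells, 85.9 ± 2.43 in resistant cells and 448 ± 40.8 in parental cells. Its log2 differences were -2.38 ± 0.10 for resistant against parental cells (adjusted p = 1.59e-12) and 1.67 ± 0.10 for inhibitor against resistant cells (adjusted p = 5.08e-10).

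Proteases that clade B serpins are known to inhibit formed a list of 16 genes, 8 of which were above background in at least 1 group. CTSG, ELANE, PRTN3, CMA1 and GZMB, which are among the targets of SERPINB1, SERPINB6 and SERPINB9, had group means between 81.0 and 88.7. They were not called in any comparison. Of the 16, 2 rose and 2 fell between resistant and parental cells, 3 rose and 1 fell between inhibitor and resistant cells, and 2 rose and 1 fell between inhibitor and parental cells. Calls over all genes were 20.5%, 17.5% and 14.9% in that order. The median log2 difference of the list was between 0.00 and 0.02 in the 3 comparisons. CTSL, the lysosomal cathepsin L that SERPINB3 inhibits, was 1164 ± 144 in inhibitor cells, 2704 ± 123 in resistant cells and 971 ± 98.9 in parental cells. CTSL rose by 1.48 ± 0.12 in resistant against parental cells (adjusted p = 9.03e-09) and was lower in inhibitor than in resistant cells, at -1.22 ± 0.12 (adjusted p = 2.05e-07). CTSV, the closest relative of cathepsin L, went the other way, with 1043 ± 79.9 in inhibitor cells, 449 ± 42.0 in resistant cells and 921 ± 50.5 in parental cells. Its log2 differences were -1.04 ± 0.12 for resistant against parental cells (adjusted p = 1.16e-06) and 1.22 ± 0.12 for inhibitor against resistant cells (adjusted p = 2.13e-07). CTSL against parental cells was not called in inhibitor cells (0.26, adjusted p = 0.173), but was without inhibitor replicate 2 (0.37, adjusted p = 0.0118).

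PLAT and PLAU, the tissue-type and urokinase-type plasminogen activators, are proteases that SERPINB2 inhibits. PLAT was 554 ± 62.1 in inhibitor cells, 154 ± 10.4 in resistant cells and 864 ± 86.5 in parental cells. It had a log2 difference of -2.49 ± 0.12 for resistant against parental cells (adjusted p = 5.58e-12) and of 1.85 ± 0.12 for inhibitor against resistant cells (adjusted p = 8.21e-10). PLAU was 3064 ± 190.2 in inhibitor cells, 3013 ± 226 in resistant cells and 3381 ± 362 in parental cells, and was not called in any comparison (adjusted p = 0.285 for resistant against parental, 0.915 for inhibitor against resistant and 0.425 for inhibitor against parental cells). FURIN, the target of SERPINB8, was 122 ± 11.9 in inhibitor cells, 93.6 ± 4.05 in resistant cells and 96.5 ± 2.12 in parental cells. FURIN rose by 0.38 ± 0.06 in inhibitor against resistant cells (adjusted p = 0.000124) and by 0.34 ± 0.06 in inhibitor against parental cells (adjusted p = 0.000539). It was not called between resistant and parental cells, at -0.04 ± 0.06 (adjusted p = 0.723). CASP1, a protease of inflammasomes that is also on the list of targets, rose by 0.52 ± 0.06 in resistant against parental cells (adjusted p = 2.96e-06). It rose by 0.45 ± 0.06 in inhibitor against parental cells (adjusted p = 3.19e-05).

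Among 6 genes that bind plasminogen or its activators at the cell surface, 1 fell between resistant and parental cells, 2 rose between inhibitor and resistant cells and 1 rose between inhibitor and parental cells. The shares of all genes called higher or lower were 20.5%, 17.5% and 14.9%. PLAUR, the urokinase receptor, was 673 ± 42.1 in inhibitor cells, 509 ± 34.8 in resistant cells and 424 ± 30.6 in parental cells. It rose by 0.67 ± 0.11 in inhibitor against parental cells (adjusted p = 0.000229). Its rise in inhibitor against resistant cells, 0.40 ± 0.11 (adjusted p = 0.0147), reached an adjusted p of 0.0773 over the alternatives and was lost without resistant replicate 1, resistant replicate 3 or inhibitor replicate 1. The gene that fell in resistant cells was S100A10, a plasminogen-binding partner of annexin A2 (-0.25 ± 0.06, adjusted p = 0.00285), which rose by 0.28 ± 0.06 in inhibitor against resistant cells (adjusted p = 0.00124). Between resistant and parental cells, 2 of the 6 genes fell in 7 of the 18 alternative fits, among them those without parental replicate 2 or inhibitor replicate 2, and 1 gene rose in 3 of them, among them that without inhibitor replicate 2.

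**Figure D4:**
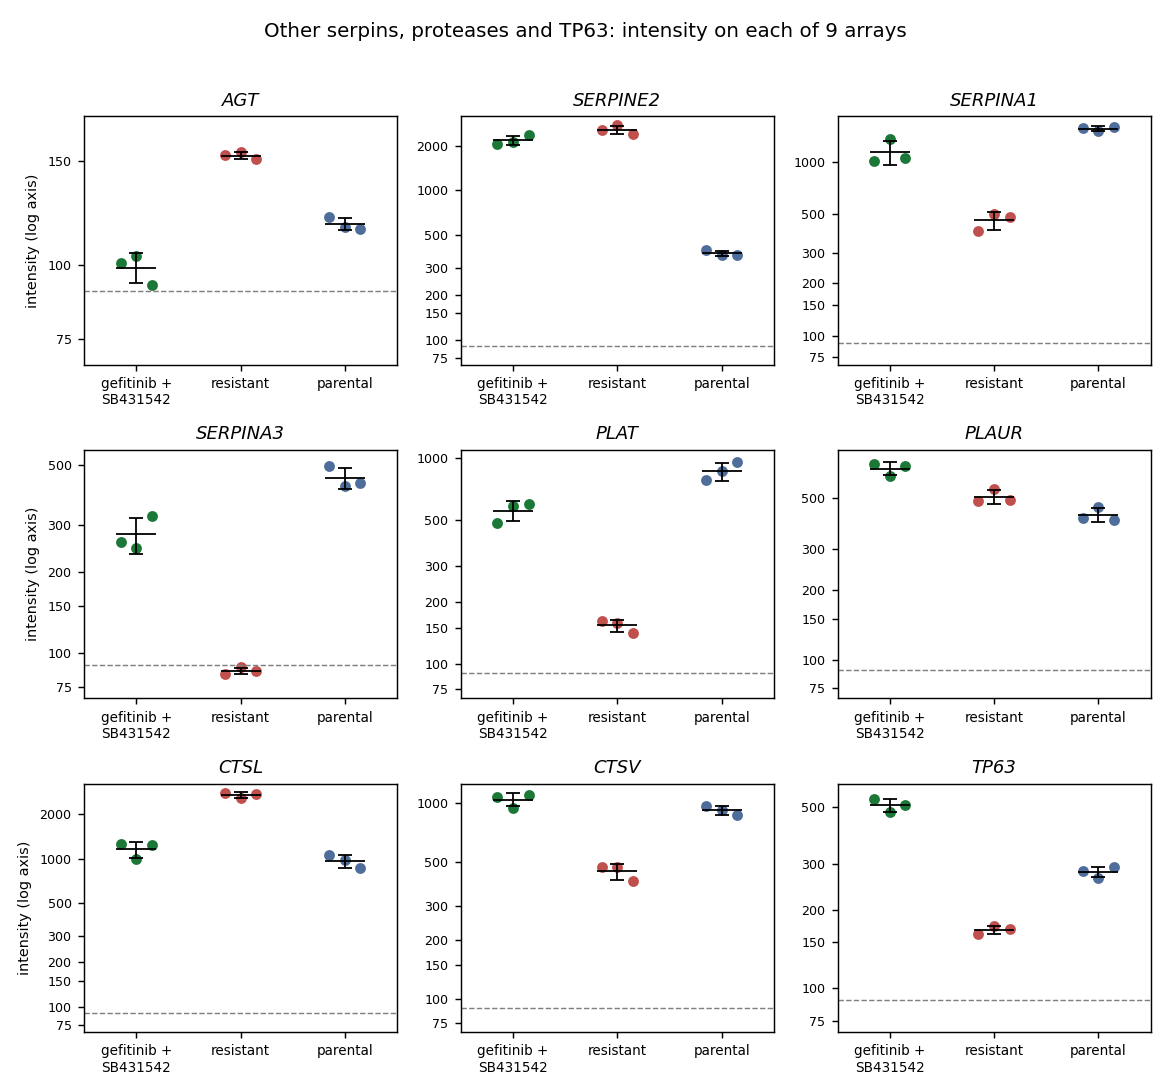
Intensity (log axis) on each of the 9 arrays for 4 serpins of other clades, 4 genes of proteolysis and TP63, with group mean and SD (n = 3) and the background level of 90.4 dashed. AGT and CTSL are highest in resistant cells, SERPINA1, SERPINA3, PLAT, CTSV and TP63 are lowest there, and PLAUR is highest in inhibitor cells.

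SERPINB5 and SERPINB7 are genes of stratified epithelia, and a list of 20 genes of squamous cells and their differentiation is set beside them. Of these 20, 2 rose and 2 fell between resistant and parental cells, 5 rose between inhibitor and resistant cells, and 7 rose and 1 fell between inhibitor and parental cells. Among all genes, 20.5%, 17.5% and 14.9% were called higher or lower in these comparisons. The median log2 difference of the list was -0.01, 0.06 and 0.06 in that order. Without parental replicate 2 or resistant replicate 1 the rises between resistant and parental cells numbered 1, and after background subtraction 3 genes rose against resistant cells and 4 against parental cells in inhibitor cells. TP63, the p63 factor of basal squamous cells, was 506 ± 27.7 in inhibitor cells, 168 ± 5.90 in resistant cells and 280 ± 13 in parental cells. TP63 fell by 0.74 in resistant against parental cells (SE 0.09, adjusted p = 5.21e-06), where SERPINB5 and SERPINB7 were higher, and rose by 1.59 ± 0.09 in inhibitor against resistant cells (adjusted p = 2.31e-10). SPRR1A, a small proline-rich protein of the cornified envelope, was 298 ± 45.4 in inhibitor cells, 122 ± 10.1 in resistant cells and 120.4 ± 10.9 in parental cells. It rose by 1.28 ± 0.10 in inhibitor against resistant cells (adjusted p = 1.74e-08). KRT6A rose by 0.46 ± 0.06 in resistant against parental cells (adjusted p = 2.39e-05) and by 0.68 ± 0.06 in inhibitor against parental cells (adjusted p = 2.82e-07). The basal keratins KRT5 and KRT14 had group means between 83.0 and 85.4, below the background level. The summed level of the 20 genes was 3429 to 3642 in inhibitor arrays, 2660.0 to 2930 in resistant arrays and 2863 to 3146 in parental arrays, and whether a share of squamous-like cells takes part in the SERPINB5 values was not tested.

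Epithelial genes moved with the groups too. Of 16, 13 fell between resistant and parental cells, with a median of -1.12 on the log2 scale, 14 rose between inhibitor and resistant cells, with a median of 1.37, and 5 rose and 1 fell between inhibitor and parental cells. In these comparisons 20.5%, 17.5% and 14.9% of all genes were called higher or lower. CDH1, or E-cadherin, was 2858 ± 210.0 in inhibitor cells, 713 ± 46.7 in resistant cells and 1935 ± 272 in parental cells, so it was lowest in resistant cells, whereas SERPINB5 and SERPINB7 were lowest in parental cells. Of 11 mesenchymal genes, 8 rose between resistant and parental cells, 6 fell between inhibitor and resistant cells and 6 rose between inhibitor and parental cells, with medians of 1.69, -0.35 and 0.43. VIM, or vimentin, was 3219 ± 344 in inhibitor cells, 7565 ± 354 in resistant cells and 2069 ± 202 in parental cells. CDH1 rose by 0.57 ± 0.12 and VIM by 0.64 ± 0.09 in inhibitor against parental cells (adjusted p = 0.00161 and 5.35e-05). The part of these shifts in the values of the clade B serpins was not tested.

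Several clade B serpins are abundant in leukocytes, and 4 of 10 leukocyte markers were above background in some group (CD14, CD68, LYZ and CD2), while PTPRC, CD3E and MS4A1, which define leukocytes and their lineages, were at background in all groups. The summed level of the 10 was 1858 to 2340 in inhibitor arrays, 2305 to 2416 in resistant arrays and 2227 to 2343 in parental arrays. Between resistant and parental cells 1 of the 10 rose and 2 fell, between inhibitor and resistant cells 1 rose and 1 fell, and between inhibitor and parental cells 1 fell. All genes had 20.5%, 17.5% and 14.9% called higher or lower in the same comparisons. The fall against resistant cells was that of CD68 (-0.41 ± 0.14, adjusted p = 0.0491), with an adjusted p of up to 0.212 over the alternatives. Of 6 endothelial markers, VWF and ERG were at background, and the sum was 529 to 535 in inhibitor arrays, 509.8 to 523 in resistant arrays and 528 to 538 in parental arrays. Of these 6, 1 fell between resistant and parental cells, 1 rose between inhibitor and resistant cells, and 2 rose and 1 fell between inhibitor and parental cells, each a call that at least 1 alternative ended.

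SERPINB5 and SERPINB7 differed at least 2-fold between their highest and lowest group means, and the genes most like them were looked up among 1106 genes that also differed at least 2-fold and rose above background. Likeness was Pearson's r of log2 intensity over the 9 arrays, which fall into 3 groups, so that r mostly follows the group means. Most like SERPINB5 were MANCR, a long non-coding RNA listed in the table as LOC100216001 (r = 0.998), SH3KBP1, an adaptor of receptor endocytosis (r = 0.997), CDH6, a cadherin (r = 0.995), CDA, or cytidine deaminase (r = 0.995), and COXFA4L3, listed as C15ORF48 (r = 0.994). CDH6 was 553 ± 44.1 in inhibitor cells, 132 ± 0.405 in resistant cells and 108 ± 2.65 in parental cells. MANCR was 426 ± 20.6 in inhibitor cells, 140.1 ± 10.1 in resistant cells and 110.4 ± 5.25 in parental cells. Both thus had, like SERPINB5, a large difference between inhibitor and resistant cells and a small one between resistant and parental cells.

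Most like SERPINB7 were MECOM, a zinc finger transcription factor listed as EVI1 (r = 0.993), PTPRR, a phosphatase of mitogen-activated kinases (r = 0.993), KRT18P48 (r = 0.992), SEMA7A, a membrane-anchored semaphorin (r = 0.991), and KRT18, a keratin of simple epithelia (r = 0.990). MECOM was 261 ± 2.49 in inhibitor cells, 168 ± 6.79 in resistant cells and 92.7 ± 2.75 in parental cells. KRT18 was 789 ± 9.28 in inhibitor cells, 474 ± 52.2 in resistant cells and 317 ± 23.2 in parental cells. KRT18P48 is a pseudogene of KRT18 and may share its signal, so the pair may count as 1 observation.

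**Figure D5:**
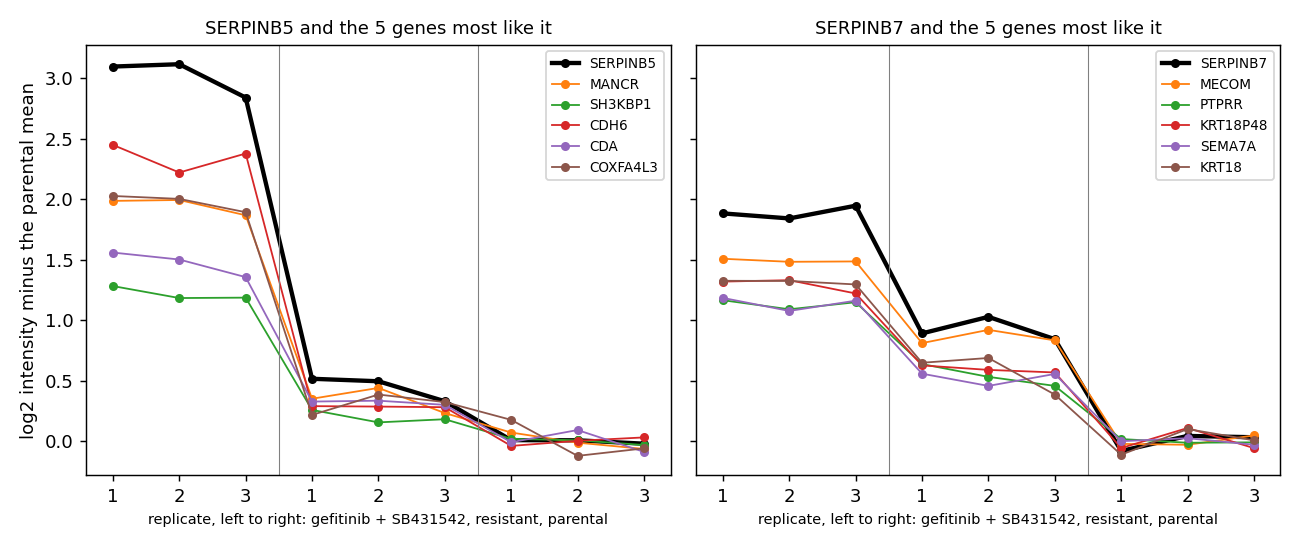
Log2 intensity minus the parental mean on each of the 9 arrays for SERPINB5 (left) and SERPINB7 (right), in black, with the 5 genes whose r with each was highest. In the left panel the inhibitor arrays stand far above the resistant and parental arrays, and in the right panel the resistant arrays lie between the inhibitor and the parental arrays.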

How the data were processed

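Total RNA of HCC4006 cells was profiled on 9 Illumina expression arrays, 3 for each of 3 groups, grouped by the sample titles. The authors deposited 1 linear intensity per gene symbol and array. The sorted values of the arrays differed by at most 0.0178 on the log2 scale from their mean, so the deposited intensities were quantile-normalized. How probes were scanned and summarised per gene is not given in the sources used here. The values ranged from 72.65 to 11566.7.

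Of 34687 rows, 3270 that name a UniGene cluster alone were left out. Names were updated with the RefSeq table of GRCh38.p14 (17757 rows by current symbol, 2669 by gene number, 3303 by older symbol, 7688 kept), and of several rows of a gene the brightest was used (728 genes), which gave 30672 genes. The log2 of the deposited intensity went into limma 3.58.1 under R 4.3.3, with all 9 arrays in a single fit, a mean for each group and a variance prior that follows intensity. P-values were adjusted by Benjamini and Hochberg's method across the 30672 genes, and adjusted values under 0.05 count as calls. No p is given for the members. The number of arrays limits the precision. Figures were drawn with matplotlib 3.10.9.

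The members, the lists (other clade B serpins, serpins of other clades, target proteases, plasminogen binding at the cell surface, squamous, epithelial, mesenchymal, leukocyte, endothelial and lung adenocarcinoma genes) and the tests were chosen with earlier results of these data known. Named genes are all members, a fixed panel whatever its result, and the 5 genes most like SERPINB5 and SERPINB7. For each list and comparison, up to 4 called genes with the largest difference and above background in at least 1 group were also taken. Some genes that this rule takes are counted in their lists but not reported here by name. The flanking genes and HMSD were added after the data were examined. Alternatives changed the normalization, the variance prior, the filter on dim genes, the background, the choice of rows and the replicate block, and left out each array in turn.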

Additional observations from a re-analysis of the deposited data

How the results depend on the processing

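The stability of 33 results was followed, namely the SERPINB5 differences and the counts of calls over all genes, the members and the lists of serpins and proteases. Of these, 31 kept their direction, their call or a count within 1.5 times under all 18 alternatives run, 9 of which left out 1 array. No SERPINB5 difference reversed, and a count cannot reverse. The counts of the other clade B serpins, which are among the 31, were 0 in every fit. The number of members called higher in resistant than in parental cells, 5, became 3 with the variance prior fitted without a trend and 3 after background subtraction, and was 3 to 5 when single arrays were left out. The members that dropped out were SERPINB4 and SERPINB9, which had no value after subtraction. The number of members called lower in inhibitor than in resistant cells, 1, became 2 with dim genes left out, when SERPINB9 was also called, over fewer genes tested. Over the alternatives, the log2 difference of SERPINB5 was 0.41 to 1.47 for resistant against parental, 2.51 to 3.69 for inhibitor against resistant and 2.97 to 5.16 for inhibitor against parental cells, the upper values after background subtraction. Those of SERPINB7 were 0.87 to 2.35, 0.93 to 1.57 and 1.85 to 3.92, where 2.35 and 3.92 rest on parental arrays set to the floor of 16, and those of SERPINB8 0.41 to 1.66, -1.04 to -0.26 and 0.11 to 0.61. Deviations of same-numbered arrays from their group mean correlated at -0.198 to 0.029, and those of differently numbered arrays at -0.173 to 0.228. Replicate numbers thus gave no sign of pairing, but with 3 arrays per group these correlations cannot settle whether samples were paired. With the replicate block, calls numbered 2944 higher and 2974 lower for resistant against parental cells, 2461 and 2468 in inhibitor against resistant cells, and 1997 and 2214 in inhibitor against parental cells, with 4 members higher in the first comparison. Background of about 90 units limits what can be read for SERPINB2, SERPINB3, SERPINB4 and SERPINB9.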
